A study of Ovis aries with 14 samples.

Results

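The comparison described here is that of the adult ovary after prenatal testosterone with the adult control ovary, with the luteal state of each ovary held as a covariate. It uses the 8 adult libraries of the 14 in the series, labelled as 4 control and 4 testosterone. The series' design text counts 3 control adults in place of 4, and the labels were followed. The libraries were chosen by those labels, and the covariate separates libraries with over 10000 renormalized reads of OXT from the rest. All animals were wild-type Suffolk sheep (Ovis aries). The adult ovaries were taken at year 2, and each library was made from total RNA of a frozen whole ovary. In the testosterone group the pregnant mother had been injected intramuscularly with testosterone propionate in cottonseed oil, 2 times a week between gestation days 30 and 90. The labels give no injection for the control group. The labels do not say how the numbered samples relate to mothers, litters or flocks, so every p-value below measures only the spread between these samples. The fetal libraries, 3 control and 3 testosterone at gestation day 90, are used only where the adult difference is set beside the fetal one.

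The adult ovary is remade in each estrous cycle. Follicles grow with granulosa cells, which carry the receptor for follicle-stimulating hormone and make estrogen and inhibin, inside a shell of theca cells, which make androgen. After ovulation the same follicle becomes a corpus luteum, whose cells express high levels of STAR, CYP11A1 and HSD3B1 for progesterone synthesis and, in sheep, make oxytocin (OXT) and lose the androgen enzyme CYP17A1. Sheep exposed to testosterone before birth are used as a model of the reproductive and metabolic traits of polycystic ovary syndrome, in which ovulation is often irregular, so whether an ovary held an active corpus luteum is a variable of its own in a comparison of whole ovaries.

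OXT split the libraries without a middle ground. Controls 4, 5, 6 and 7 had 69.7, 60.7, 94884 and 48.3 renormalized reads, and testosterone 4, 5, 6 and 7 had 110586, 22.3, 80.2 and 61705. Control 6, testosterone 4 and testosterone 7 were thus in the high state, 1 of 4 controls and 2 of 4 testosterone ovaries. The values nearest to the threshold of 10000 on either side were 80.2 and 61705. Because only 1 control was in the high state, every statement on treatment within that state rests on control 6. Any fit below that leaves out control 6 takes its treatment difference from the 5 luteal-low libraries alone.

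The recovered depth was 22.6 to 33.4 M reads over the 15773 genes that both adult tables list, and 15757 genes with a mean of at least 10 renormalized reads were tested. Correlations between libraries on the log2 scale ran from 0.838 to 0.97, and control 4 had none above 0.892. Control 4 also had summed reads of 971793 over 13 smooth muscle markers, against 102530 to 274867 in the other libraries. All 9 cell type lists with measured markers had reads in every library, with oocyte and germ cell markers at 984 to 6068 summed reads. Symbols are those of the files. Values are reads after renormalization over the 8 libraries, log2 changes are testosterone minus control on the scale of log2(reads + 1), and lengths were not used, so levels are not compared between genes.

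With the luteal state in the model, 1 gene rose and 1 gene fell in the testosterone group (limma, Benjamini-Hochberg adjusted p under 0.05), which is 0.0127% of the genes tested. The gene that rose is listed only as ENSOARG00000020231. It had 542, 519, 313 and 609.9 reads in controls 4 to 7 and 6994, 8321, 9010.4 and 7361 in testosterone 4 to 7. Every testosterone ovary lay far above every control, whatever its luteal state. The log2 change was 4.16 (SE 0.16, 17.9-fold, limma adjusted p = 8.5e-05, n = 4 per group). Without the covariate it was 4.03 (SE 0.23, limma adjusted p = 5.1e-04), so the smaller error with the covariate came with nearly the same change. The difference was 3.96 among the 5 luteal-low libraries and 4.52 among the 3 luteal-high ones, and the test of the difference between the states gave an adjusted p of 1 with limma. The gene passed in each of 28 alternative fits, with log2 changes from 3.97 to 4.25 and a highest adjusted p of 0.0253.

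The gene that fell is listed as ENSOARG00000020142. Controls 4 to 7 had 48.4, 78.1, 60.7 and 52.5 reads, and all 4 testosterone libraries had 0. Against a floor of 3 counts per library, its level was at least 19.9-fold lower in the testosterone group. The fitted log2 change of -5.91 (SE 0.49, limma adjusted p = 0.0171) depends on the pseudocount, and it was -6.90 with a pseudocount of 0.5 and -3.68 with 5. The call was less stable than that of ENSOARG00000020231. It passed with DESeq2 (adjusted p = 6.7e-09) and not with edgeR's quasi-likelihood test (adjusted p = 0.895), and with 1 library fewer it passed without control 4 (limma adjusted p = 0.0225) but with none of the other 7 left out (adjusted p from 0.0744 to 0.629). The 0 reads did not mark the treatment at both ages, since in the fetal ovary the gene had 2.14, 0.978 and 0 reads in controls 1 to 3 and 0.98, 0 and 130.3 after testosterone. In whole-tissue RNA such as this, fewer cells of a type and less RNA per cell cannot be told apart.

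**Figure D1:**
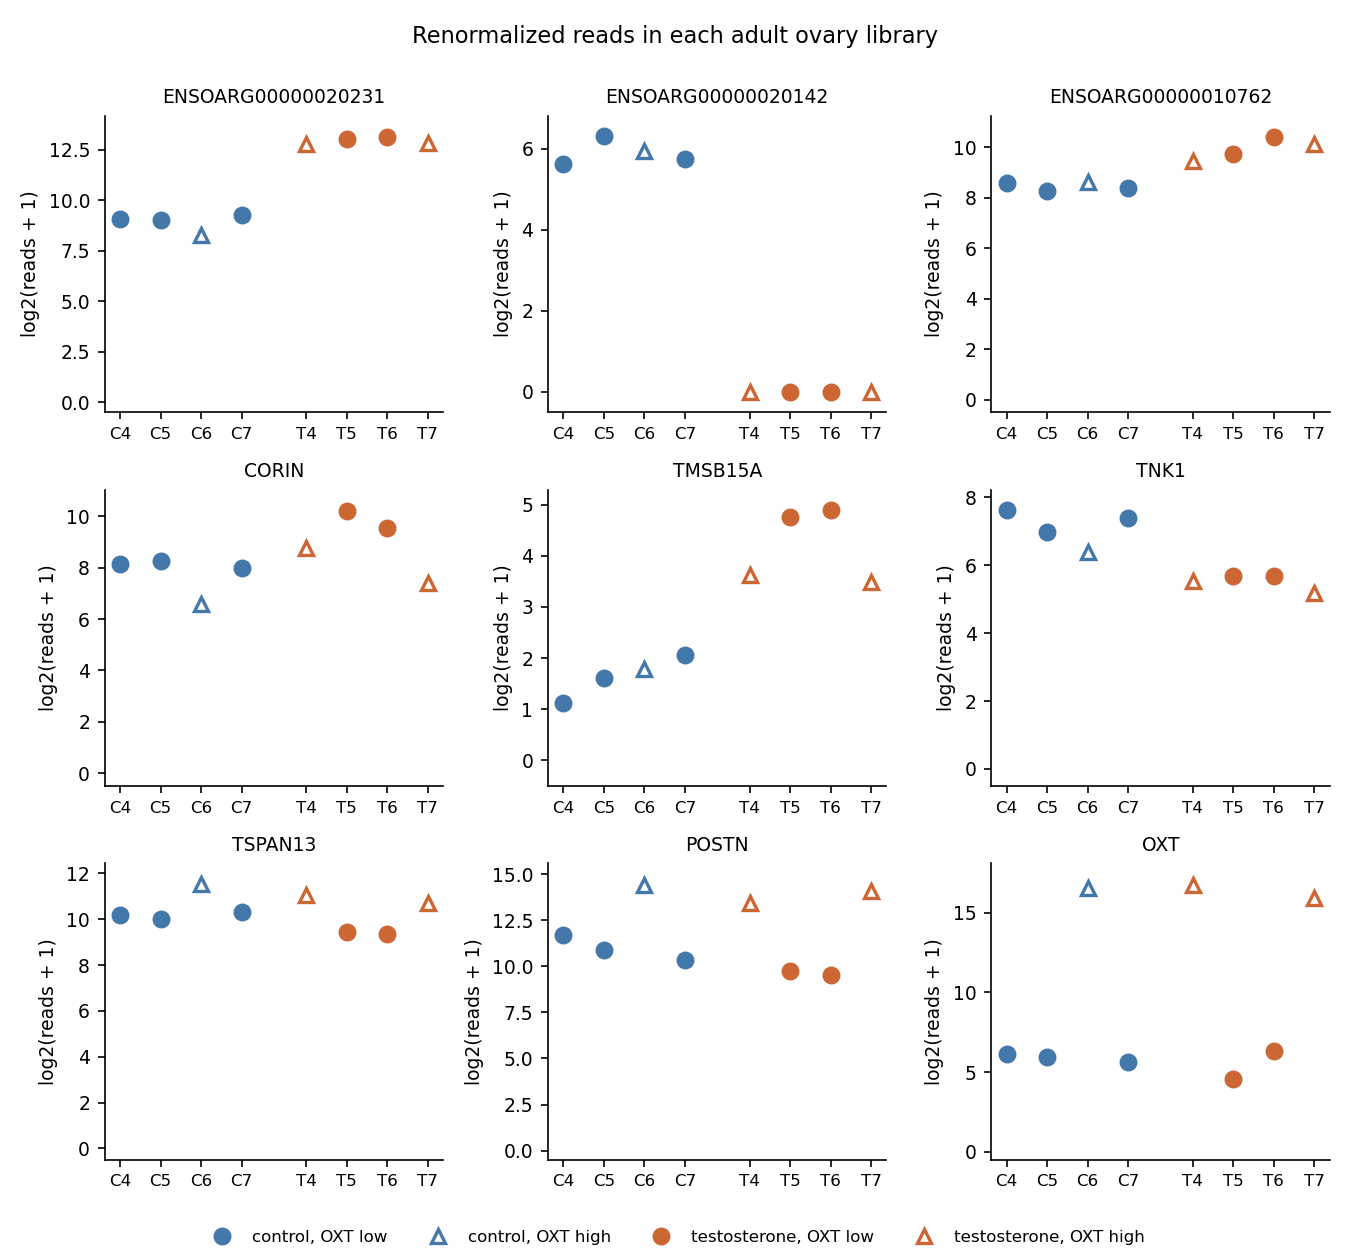
Renormalized reads of 9 genes in each adult library, on the scale of log2(reads + 1), with controls in blue, testosterone in orange, and open triangles for libraries with OXT above 10000 reads. ENSOARG00000020231 and ENSOARG00000020142 separate the groups in both luteal states. TSPAN13 and POSTN are highest in the luteal-high libraries, and within each state their testosterone values are the lower ones. Neither of these passed with limma, and only TSPAN13 was called by DESeq2. The luteal-high state has no control replicate.

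In 2 other genes all 4 testosterone libraries had 0 reads while the controls did not agree among themselves. Both were singled out after their values were seen. ENSOARG00000019479 had 0, 47.3, 113 and 70.3 reads in controls 4 to 7, so the groups met at 0 in control 4. Its limma adjusted p was 1 with all libraries and 0.0225 without control 4. HAND1, a transcription factor of the basic helix-loop-helix family, had 87.4 reads in control 4 and 0, 0 and 2.10 in controls 5 to 7, and the difference rests on control 4.

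DESeq2 on the recovered reads called 9 genes, 4 higher and 5 lower, which is 0.0581% of the 15487 genes to which it gave an adjusted p. The 2 genes above were among them, and the other 7 did not pass with limma (adjusted p = 1) or edgeR. Where log2 changes and SE are printed for these 7, they are those of limma, and only the adjusted p is that of DESeq2. ENSOARG00000010762 had 378, 310.5, 395 and 336 reads in controls 4 to 7 and 703, 840.0, 1364 and 1109 after testosterone (log2 change 1.47, SE 0.25, DESeq2 adjusted p = 4.2e-04). Its groups did not overlap, and the change hardly depended on the covariate (1.46 without it). ENSOARG00000026493 had 16.5, 42.2, 10.5 and 36.7 reads in controls and 0, 2.78, 0 and 0 after testosterone (DESeq2 adjusted p = 0.0407), again without overlap. It lies outside the rule for named genes and is given because DESeq2 called it. The remaining 5 have names. CORIN is a protease of the cell surface that cleaves natriuretic peptide precursors. It had 285, 305, 95.5 and 249.8 reads in controls 4 to 7 and 429, 1196, 740.4 and 170.1 in testosterone 4 to 7. The groups overlapped as a whole but not within a luteal state, where both luteal-high testosterone libraries lay above control 6 and both luteal-low ones above controls 4, 5 and 7. Its log2 change was 1.66 (SE 0.33, DESeq2 adjusted p = 0.0041) with the covariate and 1.24 (SE 0.62) without it. A call with the luteal state in the model favours non-overlap within a state, and the share of all genes with it was not counted.

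The other 4 named genes that DESeq2 called had smaller changes. TNK1, a non-receptor tyrosine kinase, had 196, 125, 82.6 and 166 reads in controls and 45.0, 50.1, 50.4 and 35.2 after testosterone (log2 change -1.43, SE 0.30, DESeq2 adjusted p = 0.0088). All its testosterone values lay below all controls. TSPAN13, a tetraspanin membrane protein, had 1177, 1033, 2942 and 1286 reads in controls and 2151, 696, 652 and 1668 after testosterone. The luteal-high libraries were the highest of each group, and within each state the testosterone values were the lower ones. Its limma log2 change was -0.73 (SE 0.15) with the covariate and -0.37 (SE 0.48) without it, and its DESeq2 adjusted p with the covariate was 0.0407. MFSD6, a membrane transporter-like protein, showed the same layout, with 686, 550.0, 1117 and 583 reads in controls and 745, 389.9, 382 and 653 after testosterone (log2 change -0.66, SE 0.16, DESeq2 adjusted p = 0.0407). As for CORIN, a call with the luteal state in the model favours the layout of TSPAN13 and MFSD6. SLAMF6, a receptor on lymphocytes, had 24.8, 24.7, 91.5 and 22.0 reads in controls and 194, 53.8, 69.9 and 176 after testosterone (log2 change 1.21, SE 0.29, DESeq2 adjusted p = 0.0407). It too was higher in the luteal-high libraries of both groups.

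Below the threshold, 231 genes had an unadjusted limma p under 0.05, of which 119 were higher and 112 lower after testosterone. They were only 1.47% of those tested, less than the share of 0.05 expected with no difference at all. All 4 testosterone libraries lay above all controls for only 52 genes (0.330%) and below them for only 59 (0.374%). Of these 111 genes, 54 were among the 231. A choice of genes by small p favours those whose groups do not overlap. None of the genes named in the rest of this account passed with limma, and their adjusted p was 1 in that fit unless another value is given.

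Among the 10 genes of smallest p that were higher, TMSB15A, a thymosin that binds actin monomers, had 1.18, 2.06, 2.43 and 3.15 reads in controls and 11.3, 26.0, 28.9 and 10.2 after testosterone (log2 change 2.71, SE 0.56). The groups did not overlap, but all control values lay under 4 reads, and near-identical thymosin genes could share reads with it. POU2F3, a transcription factor of chemosensory tuft cells, had 5.90, 12.3, 4.05 and 9.45 reads in controls and 15.3, 39.0, 30.8 and 12.5 after testosterone, with no overlap by a narrow margin. DSEL, an enzyme that modifies dermatan sulfate chains, had 1202 to 1619 reads in controls and 1929 to 2449 after testosterone (log2 change 0.69, SE 0.16). SLC25A43, a mitochondrial carrier, had 165 to 218 and 257 to 397 (log2 change 0.79, SE 0.21). Neither DSEL nor SLC25A43 had overlapping groups. For PCDH18, a cell adhesion protein (0.67, SE 0.15), SUCNR1, the receptor for succinate (1.53, SE 0.35), and NRG2, a growth factor of the neuregulin family (1.06, SE 0.30), the groups overlapped as a whole. SUCNR1 followed the luteal state as well, with 894 reads in control 6 and 1103 and 1665 in testosterone 4 and 7, against 106 to 197 in the other controls and 618 and 619 in testosterone 6 and 5.

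Among the 10 of smallest p that were lower, ALDH1A3, an enzyme of retinoic acid synthesis, had 832, 786, 1008 and 938 reads in controls and 327, 612, 579 and 348 after testosterone (log2 change -0.89, SE 0.23). Its testosterone libraries were all below the controls, and those with a corpus luteum signal lowest. MOXD1, a relative of dopamine beta-hydroxylase, had 72.9 to 153 reads in controls and 11.2 to 57.5 after testosterone (log2 change -2.01, SE 0.53). CA8, a carbonic anhydrase-related protein, had 178, 84.3, 257 and 80.8 reads in controls and 67.5, 62.2, 10.3 and 55.6 after testosterone (log2 change -2.03, SE 0.58). MOXD1 and CA8 had no overlap between the groups. CLCA2, a regulator of chloride channels, had 584 and 475 reads in controls 4 and 6 but 48.3 and 39.9 in controls 5 and 7, against 9.32 to 78.3 after testosterone (log2 change -3.10, SE 0.87). POSTN, the matrix protein periostin, had 22230.3 reads in control 6 against 11037 and 17179 in testosterone 4 and 7, and 1281 to 3324 in the luteal-low controls against 726 and 852 in testosterone 6 and 5. HIST1H2BD, a histone H2B gene of a family whose near-identical members could share reads, had 339 reads in control 6 against 211 and 180.3 in testosterone 4 and 7, and 25.7 to 67.3 in the luteal-low controls against 3.73 and 4.64. For both genes each testosterone library was below every control of its own luteal state. Their choice by small p in a fit with the luteal state favours this layout, and its share over all genes was not counted.

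**Figure D2:**
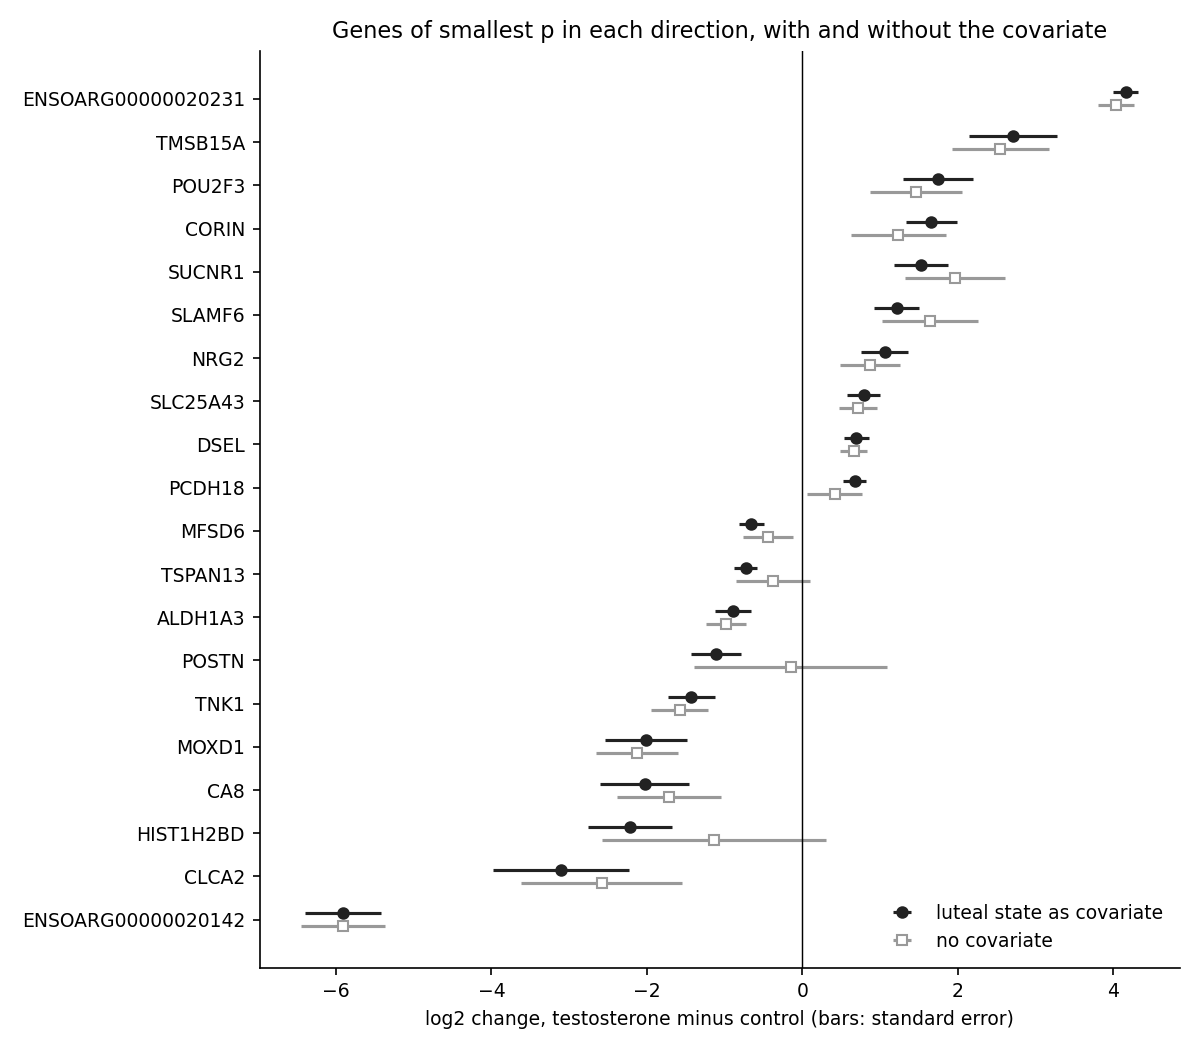
Log2 change (testosterone minus control) with its standard error for the 10 genes of smallest p in each direction, with the luteal state as a covariate (black) and without it (grey). The bars are shorter with the covariate for 19 of the 20 genes, which their choice by small p in that fit favours. Over all genes the share is 79.8%. The change of POSTN moves from -0.15 to -1.11.

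The errors were smaller with the covariate for most genes. The median residual SD over all genes was 0.411 on the log2 scale with it and 0.511 without it, and the median SE was 0.297 and 0.355. The SE was smaller with the covariate for 79.8% of genes, but the residual SD for only 64.4%. The count of genes past the threshold was 2 in either case, and the genes were the same. The genes below the threshold changed more. Of the 231 genes with an unadjusted p under 0.05 with the covariate, 103 had it without the covariate too, which is 44.6% of the first set and 81.1% of the 127 in the second. Among the 20 genes of smallest p, POSTN and HIST1H2BD moved most between the fits. POSTN had a log2 change of -0.15 (SE 1.24) without the covariate and -1.11 (SE 0.32) with it, and HIST1H2BD had -1.14 (SE 1.44) and -2.21 (SE 0.54). The sign of the change was the same in both fits for 77.2% of all genes.

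Whether the testosterone difference was the same in both luteal states could be tested only weakly. The interaction fit called 0 genes with limma and 0 with edgeR, with a median SE of 0.631. An unadjusted limma p under 0.05 was found for 326 genes, a share of only 2.07%. Over all genes the sign was the same in both states for 43.6%. For the 20 genes above it was the same for all 20, which their choice by a fit over both states favours. PDGFRA, a growth factor receptor of stromal cells, had a log2 change of 1.12 in the luteal-low state and of -0.03 in the high state (limma adjusted p = 1 for the difference).

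The levels of 14 genes of the steroid and gonadotropin axis were described, and PGR, LHCGR, CYP19A1, SRD5A1 and AMH are not analysed here. None of the 14 had an unadjusted p under 0.05, and the groups overlapped for all 14. The changes were positive for 10 and negative for 4, and the sign differed between the fits with and without the covariate for 9. Of the estrogen receptors, ESR2 had 66.1, 171, 78.5 and 133 reads in controls and 62.4, 240.4, 246 and 95.3 after testosterone (log2 change 0.68, 95% interval -0.25 to 1.62). Testosterone 5 and 6, both luteal-low, were the highest of the 8 libraries. ESR1 had 1450.0 reads in control 4 and 1093 and 1073 in testosterone 5 and 6, with a log2 change of 0.00 (95% interval -0.75 to 0.76), and the glucocorticoid receptor NR3C1 one of 0.11 (-0.44 to 0.66).

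The genes of progesterone synthesis followed the luteal state. STAR, which brings cholesterol into mitochondria, had 36624 reads in control 6 and 35001 and 49611 in testosterone 4 and 7, with 584 to 3396 in the 5 other libraries. CYP11A1, which makes pregnenolone from cholesterol, had 37534 in control 6, 49385 and 54577 in testosterone 4 and 7, and 1048 to 3421 elsewhere. HSD3B1, which makes progesterone, had 10891, 16594 and 17541 in the same libraries and 380.4 to 784 elsewhere. Without the covariate these 3 genes had log2 changes of 0.76, 0.93 and 1.6, with SE from 1.44 to 1.63. With it the changes were -0.49 (95% interval -1.57 to 0.58), -0.21 (-1.07 to 0.64) and 0.46 (-0.03 to 0.96). OXT, on which the covariate is built, and these genes are all expressed by luteal cells, so the separation of these libraries is not a result of its own.

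The genes of theca cells were low in the luteal-high libraries, and both theca and granulosa genes varied widely in the luteal-low state. CYP17A1, the enzyme of androgen synthesis, had 1.62, 15.3 and 5.67 reads in control 6 and testosterone 4 and 7. In the luteal-low state it had 183, 1035 and 1196 in controls 4, 5 and 7 and 318 and 2811 in testosterone 5 and 6. INSL3, a peptide hormone of theca cells, had 966, 4975 and 6602 in those controls and 2589 and 29961 in testosterone 5 and 6, and 135 to 522 in the high state. The highest value of both genes was that of testosterone 6, and the other luteal-low testosterone library lay within the range of the controls. FSHR, the receptor for follicle-stimulating hormone, had 4.72 reads in control 4 and 97.5 to 1612 in all others. INHA, the inhibin alpha chain, had 135 in control 4 and 321 to 9215 elsewhere. HSD17B1, which makes estradiol from estrone, had 64.9 in control 4, 2460.2 and 4117 in controls 5 and 7, and 785 and 1461 in testosterone 5 and 6. The 95% intervals of the log2 change were wide for all of these: -3.48 to 4.74 for FSHR, -3.11 to 3.14 for INHA, -2.65 to 2.98 for HSD17B1, -0.94 to 3.18 for CYP17A1 and -1.93 to 2.74 for INSL3. FSHR turned from 0.63 to -1.06 and INHA from 0.02 to -1.06 without control 4. INSR, the insulin receptor, had a log2 change of 0.32 (95% interval -0.43 to 1.07), INHBA, a chain of activin, -0.41 (-1.19 to 0.37), and the activin-binding FST -0.50 (-2.82 to 1.82).

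**Figure D3:**
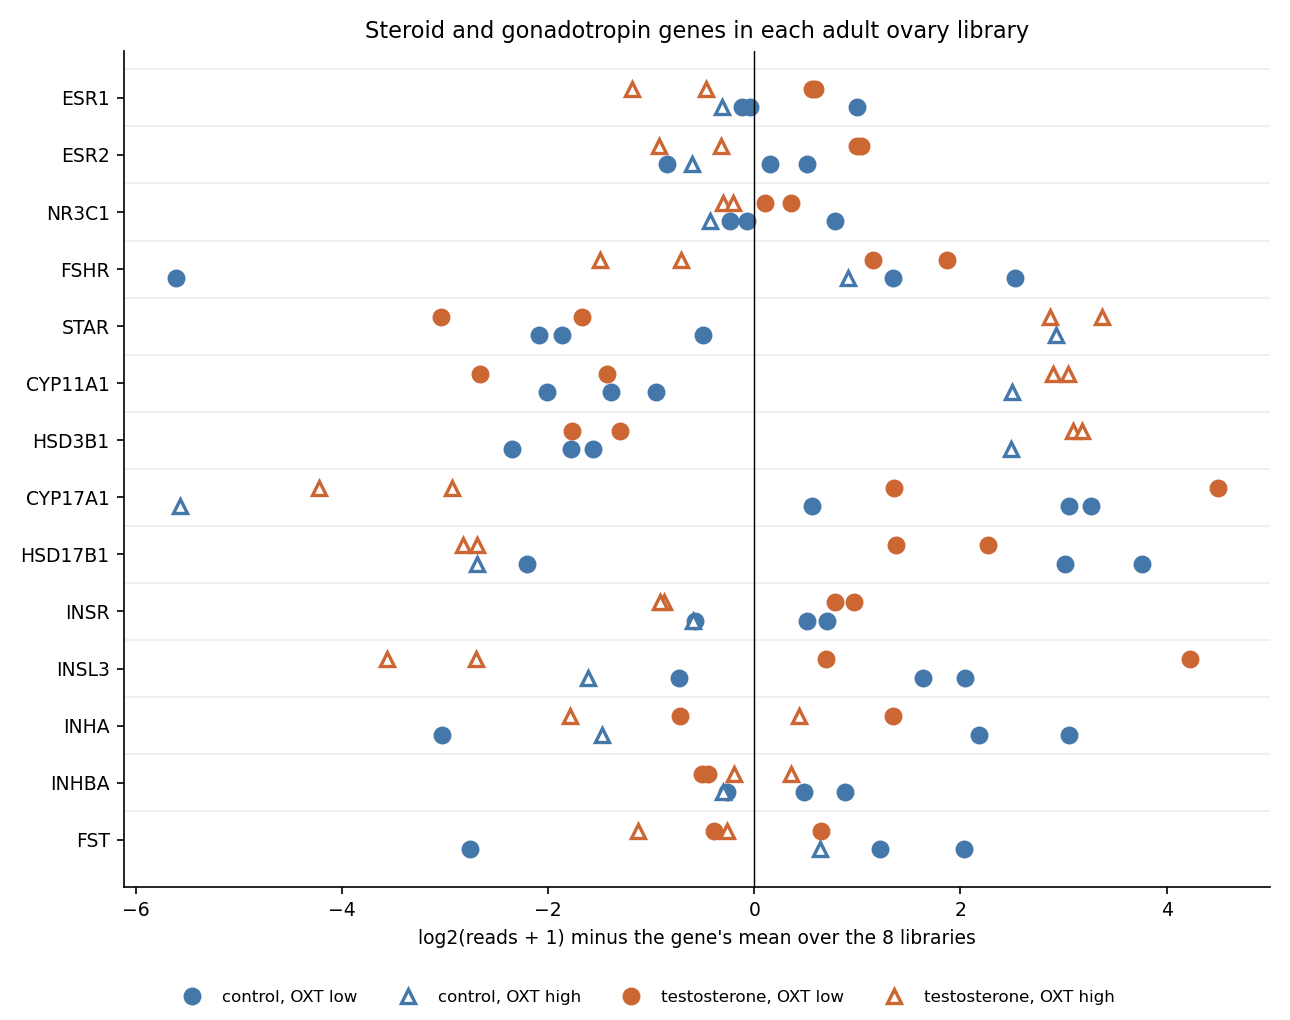
Log2(reads + 1) of 14 steroid and gonadotropin axis genes in each adult library, relative to the gene's mean over the 8 libraries, with controls in blue, testosterone in orange and open triangles for luteal-high libraries. STAR, CYP11A1 and HSD3B1 are highest in the 3 luteal-high libraries, CYP17A1 and INSL3 lowest there, and control 4 stands lowest for FSHR, INHA and FST.

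Markers of cell types were then described as lists, each by its counts and its median log2 change beside the median of all genes, -0.01 with 48.2% positive. No member of any list passed the threshold. The luteal list had a median of -0.14 (5 of 14 positive), against 0.50 (10 of 14) without the covariate, and ran from -0.29 without testosterone 6 to 0.04 without control 6. Macrophage markers moved with the luteal state. Their summed reads over 17 markers were 72473 in control 6 and 75038 and 84177 in testosterone 4 and 7, against 5338 to 22275 in the other libraries. Their median was 0.81 with all 17 positive without the covariate, and 0.19 with 11 of 17 positive with it. It was -0.18 without control 7 and -0.04 without testosterone 6. The macrophage marker CD68 had a log2 change of 1.12 (SE 0.88) without the covariate and 0.46 (SE 0.32) with it.

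Theca and stroma markers had a median of 0.19 (10 of 14 positive) with the covariate and -0.04 (7 of 14) without it. The 2 members with an unadjusted p under 0.05 were both of the stroma. TCF21, a transcription factor of mesenchymal cells, had 5663 and 6128 reads in testosterone 5 and 6 against 2549.8 to 3856 in the luteal-low controls (log2 change 0.67, SE 0.24). PDGFRA had 13601 and 11062 against 4928 to 7054 (0.71, SE 0.25). In the luteal-high state, control 6 had 2082 reads of TCF21 and 5551 of PDGFRA, and testosterone 4 and 7 had 1903 and 2781 and 5341 and 5552. The higher values after testosterone were thus those of the 2 luteal-low ovaries. The list's median ran from 0.09 without testosterone 7 to 0.31 without control 7.

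Smooth muscle markers had a median of -0.49 (2 of 13 positive), and this value rests on control 4. DES, the intermediate filament desmin, had 95832 reads in control 4 and 2153 to 8133 in all other libraries, and CNN1, a calponin of smooth muscle, had 55089.9 and 1834 to 7844. Without control 4 the list's median was -0.06, and DES and CNN1 had log2 changes of -0.68 and -0.36 in place of -1.54 and -1.01. Endothelial markers had a median of -0.25 (2 of 14 positive), which was 0.20 without control 4, whose summed reads of 133612 were the highest of the 8. Granulosa markers had a median of 0.09 (9 of 15 positive) and of -0.66 without control 4, whose 13022 summed reads were the lowest, the others having 29469 to 76775. Epithelial markers had a median of -0.46 (2 of 10 positive), oocyte and germ cell markers -0.11 (4 of 13) and lymphocyte markers -0.09 (3 of 14). With 1 library left out, the epithelial median ran from -0.75 without control 7 to -0.12 without testosterone 6, that of germ cells from -0.35 without control 4 to 0.23 without control 6, and that of lymphocytes from -0.36 without control 7 to 0.31 without control 6. The part of these cell type differences in the changes of single genes was not tested.

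**Figure D4:**
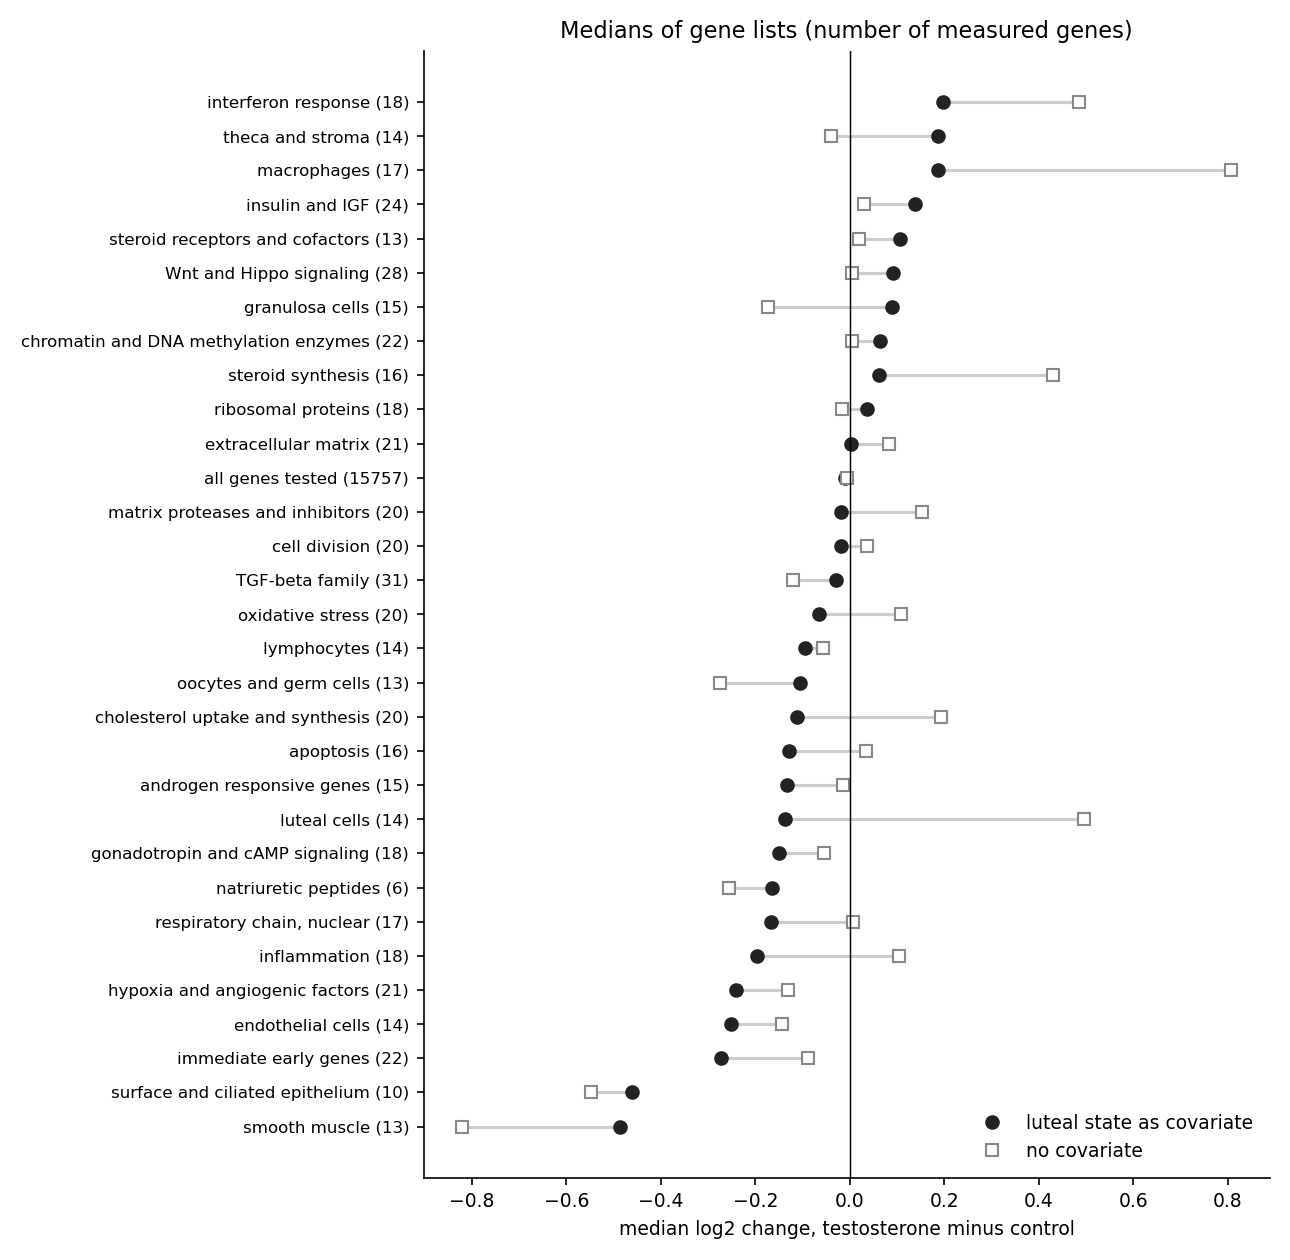
Median log2 change (testosterone minus control) of each gene list with the luteal state as a covariate (black) and without it (open squares), with the number of measured genes in brackets. The medians of luteal cells, macrophages and steroid synthesis differ most between the fits, at -0.14, 0.19 and 0.06 with the covariate and 0.50, 0.81 and 0.43 without it.

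Among the pathway lists, steroid synthesis had a median of 0.06 (12 of 16 positive) and 0.43 without the covariate, and steroid receptors and cofactors 0.11 (11 of 13) and 0.02. Androgen responsive genes were at -0.13 (7 of 15 positive), gonadotropin and cAMP signaling at -0.15 (5 of 18), cholesterol uptake and synthesis at -0.11 (9 of 20), insulin and IGF at 0.14 (16 of 24) and the TGF-beta family at -0.03 (14 of 31). The natriuretic peptide list was at -0.17 (2 of 6 positive), with CORIN as its 1 member of small p. Each of these medians moved by over 1.5 times or turned when 1 library was left out. Steroid synthesis ran from -0.06 without testosterone 6 to 0.27 without control 6, steroid receptors from 0.03 without testosterone 5 to 0.30 without control 6, and insulin and IGF from 0.07 without testosterone 5 to 0.32 without control 6. Androgen responsive genes ran from -0.28 without control 7 to -0.01 without control 6, gonadotropin signaling from -0.23 without control 7 to -0.03 without control 4, and the TGF-beta family from -0.16 without control 7 to 0.14 without control 6. Cholesterol genes ran from -0.25 without control 4 to 0.02 without control 7, and the natriuretic list from -0.29 without testosterone 6 to 0.01 without control 4.

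The nuclear genes of the respiratory chain had the narrowest pattern. All 17 had a negative change with the covariate, from -0.33 to -0.07, with a median of -0.17, and 9 of 17 were positive without it. By luteal state, the list's median was -0.25 in the low state and only -0.0073 in the high state. ATP5F1B, a subunit of ATP synthase, had 12917, 15113, 20575 and 11044 reads in controls and 21869, 9768, 11140.1 and 15829 after testosterone (log2 change -0.25, SE 0.18). None of the 17 had an unadjusted p under 0.05, and the high values of control 6 and testosterone 4 show that the list also differed by luteal state. The list's mean level, relative to the 8 libraries, was 0.66 in testosterone 4 and 0.13 in testosterone 7, so the 2 luteal-high testosterone ovaries differed from each other by more than the median change. The median stayed negative when each library in turn was left out, between -0.26 and -0.06.

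Lists of stress and immune genes leaned on single libraries or on the luteal state. Interferon response genes had a median of 0.20 (16 of 18 positive), but it was -0.18 in the luteal-low state and 1.25 in the high state. Their summed reads were 69192 in testosterone 7 and 14803 to 38258 in all others, and the median was -0.11 without testosterone 7. It was -0.17 without control 6, where the luteal-low libraries alone set the difference. Immediate early genes, which are induced within minutes of a stimulus, had a median of -0.27 (4 of 22 positive). That median was 0.02 without testosterone 7 and -0.62 without testosterone 4. Cell division genes had a median of -0.02 (9 of 20 positive), with -0.46 in the low state and 1.23 in the high state. It was 0.35 without control 7, and the -0.46 without control 6 is the luteal-low difference again. Inflammation genes were at -0.20 (6 of 18 positive), at 0.02 without control 4 and at -0.52 without control 6. IL1B, a cytokine of activated macrophages, was the 1 member with an unadjusted p under 0.05 (log2 change -1.45, SE 0.60). It had 11.1 and 14.9 reads in testosterone 5 and 6 against 17.8 to 105 in the luteal-low controls. CHI3L1, a chitinase-like protein, had a log2 change of -1.11 (SE 0.51).

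Genes of the extracellular matrix had a median of 0.00 (11 of 21 positive), from -0.24 without control 7 to 0.26 without control 4, with POSTN as the 1 member under an unadjusted p of 0.05. Proteases and their inhibitors had a median of -0.02 (9 of 20 positive), from -0.31 without control 7 to 0.06 without control 4. MMP16, a membrane-bound matrix protease, was the 1 such member there, with 3109 and 2648 reads in testosterone 5 and 6 against 1175 to 1931 in the luteal-low controls (log2 change 0.66, SE 0.23). Its high-state values of 1148 in control 6 and 1180.3 and 1392 in testosterone 4 and 7 lay close together, the same layout as in TCF21 and PDGFRA. The other lists had medians of -0.24 for hypoxia and angiogenic factors (4 of 21 positive), -0.13 for apoptosis (5 of 16), -0.06 for oxidative stress (8 of 20), 0.04 for ribosomal proteins (14 of 18), 0.09 for Wnt and Hippo signaling (16 of 28) and 0.06 for chromatin and DNA methylation enzymes (16 of 22), with no member under an unadjusted p of 0.05. With 1 library left out, hypoxia genes ran from -0.41 without control 7 to -0.12 without control 4, apoptosis genes from -0.31 without control 6 to -0.0010 without control 4, and Wnt and Hippo genes from -0.11 without control 7 to 0.19 without control 6. Oxidative stress genes ran from -0.14 without testosterone 4 to -0.01 without testosterone 5, ribosomal proteins from -0.01 without testosterone 6 to 0.09 without testosterone 5, and chromatin enzymes from 0.0019 without testosterone 5 to 0.14 without control 6.

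The authors' deposited tables compare 3 with 3 adult libraries each and have no luteal covariate. Of 4 genes called in the first and 5 in the second, ENSOARG00000020231 and ENSOARG00000020142 are in both. In the fit over all 8 libraries with the covariate, the others kept their direction without passing in limma. CLCA2, with an adjusted p of 0.0088 in the authors' deposited table, had a log2 change of -4.31 there. On the joined reads it was -3.82 with DESeq2, which gave this gene no p-value, and -3.10 with limma. CFAP58, a protein of cilia and flagella (0.0080 in the authors' deposited table), had 7.08, 15.4, 7.29 and 3.15 reads in controls and 13.3, 51.1, 53.2 and 77.1 after testosterone (log2 change 2.45, SE 0.70). Testosterone 4 lay below control 5, and the second table holds neither of them. ENSOARG00000015675 had 59.1 to 106 reads in controls and 127 to 203 after testosterone, and ENSOARG00000001588 had 129 to 403 and 19.6 to 89.0, both without overlap (log2 changes 1.19, SE 0.28, and -2.30, SE 0.57). DESeq2 on the joined reads gave both an adjusted p of 0.0693. ENSOARG00000010762, called in the second deposited table, was called by DESeq2 on the joined reads as well.

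Last, the adult difference was set against the fetal one, from separate limma fits. Of 15163 genes measured at both ages, 1 had an adult change that differed from the fetal change past the threshold. An unadjusted p under 0.05 was found for 630, a share of only 4.15%. ENSOARG00000020231 had 4399, 7600.1 and 4871 reads in fetal controls and 5179, 5240.2 and 5114 in fetal testosterone ovaries. The fetal log2 change was -0.08 (SE 0.18), and the adult minus fetal difference was 4.24 (SE 0.24, adjusted p = 1.3e-07 from the limma fits). Of the 20 genes of smallest p in the adult fit, 18 were measured in the fetus and 9 had the same sign there. CORIN was the gene among them with the largest fetal change in the same direction, 2.09 (SE 0.18, limma adjusted p = 0.0218), from 707, 1070.3 and 801 reads to 4145, 2905 and 3876. Its adult minus fetal difference was -0.43 (SE 0.38, adjusted p = 0.994 from the limma fits). TMSB15A had a fetal change of 1.02 (SE 0.42), with testosterone 3 within the range of the controls.

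The named genes with the lowest p-values for an age difference were PCDH18, DOK5, DSEL, TSPAN13, TPM3 and MOXD1, none past the threshold (adjusted p from 0.182 to 0.511 from the limma fits). In all 6 the adult and fetal changes had opposite signs, which their choice by the difference between the ages favours. DOK5, an adaptor protein of receptor tyrosine kinases, had 255 to 398 reads in adult controls and 167 to 239 after testosterone, and 103 to 111 in fetal controls and 194 to 240.1 after testosterone. TPM3, a tropomyosin, had an adult change of -0.43 (SE 0.15) and a fetal one of 0.47 (SE 0.12). MOXD1 had -2.01 (SE 0.53) and 0.91 (SE 0.20), PCDH18 0.67 (SE 0.15) and -0.33 (SE 0.08), and DSEL 0.69 (SE 0.16) and -0.43 (SE 0.16).

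**Figure D5:**
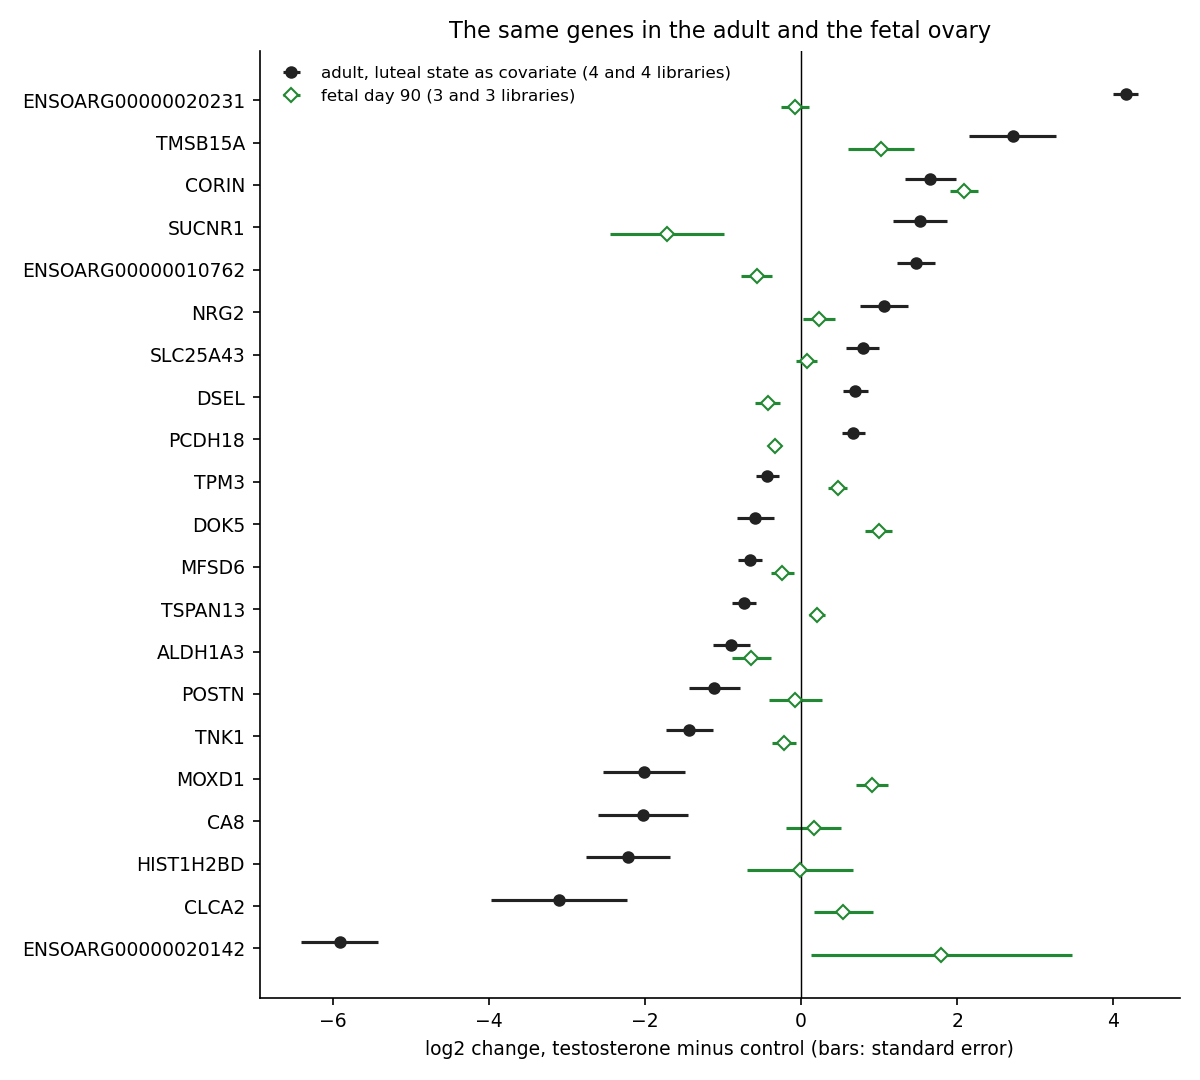
Log2 change (testosterone minus control) with its standard error for 21 genes in the adult ovary with the luteal covariate (black) and in the fetal ovary at gestation day 90 (green). CORIN is higher after testosterone at both ages, while ENSOARG00000020231 has a change of 4.16 in the adult and -0.08 in the fetus.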

How the data were processed

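RNA of whole ovaries was sequenced as 150-base pairs from 500 ng of RNA per library, per the labels' protocols. Per the submitters' processing notes, Trimmomatic 0.36 and STAR 2.5.2b were used. The sources used here do not give the counting program, the genome build, the annotation or whether strand was used. The deposited signal is a count per gene divided by 1 size factor per library. Divided by the step of their library, 100% of values came out whole with a tolerance of 0.01 read, which gave the reads back. The authors' deposited log2 fold changes and p-values are quoted only where named.

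Controls 4 and 5 and testosterone 4, 5 and 6 came from the first adult table, and controls 6 and 7 and testosterone 7 from the second. Control 6 has more reads in the second table, for 15619 of 15773 genes. Genes in only 1 table, 391, were left out. The joined reads were renormalized by median-of-ratios size factors and tested as log2(reads + 1) where a gene averaged 10 or more, by limma 3.58.1 under R 4.3.3 (trend on), with testosterone and the 2-level luteal state as terms and Benjamini-Hochberg adjusted p under 0.05. On the recovered reads, edgeR 4.0.16 called 1 gene and DESeq2 1.42.0 called 9. The scripts were tested on simulated data.

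Named genes are up to 10 per direction past the threshold, filled with named genes of smallest p, 20 steroid axis genes, up to 2 of smallest p per list, 6 of smallest p for the age difference and those the authors called. Of these, the text gives a part, and some genes are not reported here. Lists, members and rule were chosen with earlier results of these data known. Beside the 30 lists described, a list of red blood cell genes had 0 of 9 genes measured. Shared replicate numbers were not treated as pairs. No sequences were used.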

Additional observations from a re-analysis of the deposited data

Results flagged for a closer look

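In groups of 4 libraries, 5 of 110 gene and group combinations had a highest or lowest library whose gap to the next was, as a share of the group's range on the log2(reads + 1) scale, above Dixon's 95% critical value, and chance flags about 1 in 20 groups. Of these, 3 were control 6, the only luteal-high control, with 94884 reads of OXT, 10891 of HSD3B1 and 91.5 of SLAMF6. OXT set the luteal state and HSD3B1 follows it, so neither flag is a result of its own. CA8 stood low in testosterone 6 at 10.3 reads, and ENSOARG00000026493 was above 0 in testosterone 5 alone, at 2.78 reads. On the scale of reads, 18 combinations exceeded the same limit, 10 of them in control 6 and 5 in control 4. The testosterone effect on ENSOARG00000020231 differed between the ages, by 4.24 on the log2 scale (adult minus fetal, adjusted p = 1.3e-07 from the limma fits).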

How the results depend on the processing

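Of 1584 gene values under alternatives over 55 genes, 1510 kept their direction and their side of the threshold, 8 newly passed it and 13, all of ENSOARG00000020142, no longer did. The count of 2 genes past the threshold in the adult comparison was 1 with a mean of at least 50, with edgeR, with number 7 as a batch term, in the luteal-low libraries and in the first and the second adult table alone, and 9 with DESeq2. Leaving out 1 library gave 1 to 3, with 3 without control 4. The filter at 50 leaves ENSOARG00000020142 out. For the others the cause was not tested. With the replicate block the count was 1. Same-numbered libraries correlated at 0.28, -0.02, 0.49 and 0.41 after group and luteal means, not every library did so best with its own number, and the labels give the numbers no meaning. The luteal state interaction had 0 genes in every alternative run (0 to 0 with 1 library fewer) and cannot be fitted without control 6. The age difference had 2 genes at an adjusted p under 0.1 and 2 without testosterone 4, the range with 1 library fewer being 1 to 2.

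The direction turned in 53 alternatives over 12 genes, none past the threshold, and the cause was not tested. Without the covariate the log2 changes were 0.93 for CYP11A1, -0.65 for CYP17A1, -0.26 for ESR1, -0.94 for HSD17B1, -0.36 for INHA, -0.67 for INSL3, -0.020 for INSR, -0.026 for NR3C1, 2.33 for OXT and 0.76 for STAR. With the luteal list mean as the covariate they were 0.0023 for CYP11A1, -0.052 for ESR1, -0.089 for HSD17B1, -0.11 for INHA and 0.13 for OXT. With the smooth muscle list mean added they were -0.98 for FSHR, -0.88 for HSD17B1, -0.98 for INHA and -0.36 for INSL3. DESeq2 gave -0.045 for ESR1, -0.67 for FSHR, -0.67 for HSD17B1 and -0.63 for INHA, and edgeR -0.046, -0.67, -0.70 and -0.65. Without control 4, FSHR was at -1.06, HSD17B1 at -0.97, INHA at -1.06 and INSL3 at -0.23. With 1 library fewer, ESR1 ran from -0.16 to 0.30, INHA from -1.06 to 0.76, HSD17B1 from -0.97 to 0.81, FSHR from -1.06 to 2.10, INSL3 from -0.87 to 1.48, CYP11A1 from -0.59 to 0.23, OXT from -0.82 to 0.14 and NR3C1 from -0.0062 to 0.30. ESR1 was at -0.00067 with control 6 from the first table, -0.022 with the batch term and -0.20 in the second table, NR3C1 at -0.0037 in the second table and FST at 0.29 in the first. INHA was at -0.41 in the luteal-low libraries, -0.0016 after quantile normalization and -0.012 with the replicate block.

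Depth limits genes of few reads, such as TMSB15A and ENSOARG00000026493, where intervals of counting error are wide. Only 1 control was luteal-high, so a difference within that state has no control replicate.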
